A study of Homo sapiens with 14 samples.

Results

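Collagens, laminins and the integrins that hold cells to them form the structural basis of the basement membrane and the interstitial matrix. KLF4 ChIP-seq summits were examined at the 82 protein-coding genes whose symbols place them in these 3 families, 44 collagen, 12 laminin and 26 integrin genes, out of 20033 protein-coding genes in GENCODE release 44. The members were taken by gene symbol and not by any measured value, and each was read in a window from 5 kb upstream of the gene start to the gene end.

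The cells were BEAS-2B, an established human line labelled as normal bronchial epithelial cells, and the 4 KLF4 libraries were WT control, WT As3+, Nrf2 KO control and Nrf2 KO As3+, where As3+ is trivalent arsenic given at 1 µM for 6 h. Every condition was measured in 1 library, without replicates, so the comparisons are between single libraries and carry no p-value. The Nrf2 KO cells were colonies selected with blasticidin after CRISPR-Cas9 editing in exon 2 of the gene and were called KO from the loss of detectable Nrf2 protein, while colonies of the same transfection and selection that still expressed it were called WT. A peak list holds neither transcript nor protein levels, so neither the knockout nor the epithelial identity of the cells could be checked against marker genes here.

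Each collagen molecule winds 3 chains into a triple helix, and laminins join an alpha, a beta and a gamma chain into a cross-shaped trimer. Integrins pair an alpha with a beta chain and link these proteins to the cytoskeleton. In airway epithelium, basal cells sit on a basement membrane of type IV collagen and laminin and are fixed to it by hemidesmosomes. KLF4 is a zinc-finger transcription factor of epithelial differentiation and stem cell programmes that binds CACCC-type elements.

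The lists differed widely in length, from 130 peaks on the autosomes, X and Y for Nrf2 KO As3+ and 751 for WT control to 29870 for WT As3+ and 76545 for Nrf2 KO control. The number of reads behind each list was not used. The fragments over a summit were inferred from the fold enrichment and p of each peak under an assumed Poisson model. At the summits of the 3 families their median was 34 for WT control, 10 for WT As3+ and 7 for Nrf2 KO control, over median local backgrounds of 5.32, 1.35 and 0.749 fragments. With 1 library per condition, a change in KLF4 binding and a difference in the length or depth of the list cannot be told apart, and each count is therefore read beside the share of all protein-coding genes.

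The sequences below are those of a few named sites, from hg38 and on the strand of the gene. Capitals mark 2 kinds of word, the KLF word CCACACCC or CCACGCCC (GGGTGTGG or GGGCGTGG on the other strand) and the AP-1 word TGACTCA or TGAGTCA. All words were searched on both strands, and a match is a description and not a binding site. The intron 2 site of LAMA5 carried the strongest KLF4 peak of the 3 families in the WT As3+ list and held both words, 145 bp apart from start to start (chr20:62359480-62359672, minus strand).
LAMA5 intron 2: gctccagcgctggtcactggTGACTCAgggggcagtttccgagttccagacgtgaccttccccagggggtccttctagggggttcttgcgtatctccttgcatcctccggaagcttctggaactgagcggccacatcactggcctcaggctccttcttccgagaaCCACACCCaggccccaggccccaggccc

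The other sites with a peak in the untreated WT cells are shown next, since with LAMA5 they are all the sites of these families with a WT control peak. COL16A1 lies on the minus strand (chr1:31674596-31674643) and ITGA3 on the plus strand (chr17:50056015-50056062 upstream and chr17:50062608-50062668 in intron 1). COL6A2 lies on the plus strand (chr21:46117057-46117117). Neither word was found within 100 bp of the COL6A2 summit or of the intron 1 summit of ITGA3, and the 61 bp around those summits are given.
COL16A1 intron 44: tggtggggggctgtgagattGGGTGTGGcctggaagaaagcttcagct
ITGA3 upstream: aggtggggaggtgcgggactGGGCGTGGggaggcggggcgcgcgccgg
ITGA3 intron 1: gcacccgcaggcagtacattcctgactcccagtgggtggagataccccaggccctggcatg
COL6A2 intron 10: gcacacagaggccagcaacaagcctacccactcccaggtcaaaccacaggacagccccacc

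A last set shows words under peaks that were listed after arsenic or in the Nrf2 KO control cells. Most peaks of these families had neither word near the summit. In the WT As3+ list 21 of 208 windows of 200 bp held the KLF word and 9 of 208 the AP-1 word. The ITGA5 promoter held a KLF word (chr12:54419370-54419417, minus strand), the COL7A1 promoter and intron 3 of ITGA3 an AP-1 word (chr3:48595633-48595679, minus strand, and chr17:50064810-50064856, plus strand), and intron 2 of COL7A1 a KLF word (chr3:48594760-48594807, minus strand). Intron 3 of COL18A1 (chr21:45470912-45471063, plus strand) held 3 KLF words spaced 35 and 69 bp apart in a stretch that repeats itself, and its whole WT As3+ peak of 550 bp held 5 KLF words, and no other peak of these families held more.
ITGA5 upstream: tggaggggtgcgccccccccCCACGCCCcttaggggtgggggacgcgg
COL7A1 upstream: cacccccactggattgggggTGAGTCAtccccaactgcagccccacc
ITGA3 intron 3: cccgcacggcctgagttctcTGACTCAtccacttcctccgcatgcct
COL7A1 intron 2: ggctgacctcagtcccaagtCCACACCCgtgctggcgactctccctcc
COL18A1 intron 3: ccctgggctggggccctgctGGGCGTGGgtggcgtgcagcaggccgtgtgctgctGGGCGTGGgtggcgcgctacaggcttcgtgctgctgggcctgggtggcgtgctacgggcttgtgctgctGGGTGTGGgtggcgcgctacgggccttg

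The first comparison asks where KLF4 was found at matrix and adhesion genes with and without arsenic in WT cells. Few of these genes had a summit in the untreated WT cells and most had one after As3+. Of the 82 genes, 4 had a summit in the WT control list, or 4.88% (1.34% to 12%; exact Clopper-Pearson intervals at 95%, here and below, cover counting error and nothing else) beside 2.28% of all protein-coding genes. The WT As3+ list held a summit at 62 genes, 75.6% (64.9% to 84.4%) beside 63.7% of all. Of these, 58 had none in the WT control list, 70.7% of the 82 genes beside 61.5% of all genes. None of the 4 genes with a WT control summit lost it with arsenic in WT cells. The WT As3+ list is far longer, with 29870 peaks against 751, and overlapped 85.6% of all WT control peaks. By family, the WT As3+ summits fell at 31 of 44 collagen, 9 of 12 laminin and 22 of 26 integrin genes.

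In the Nrf2 KO cells the direction was the opposite. The Nrf2 KO control list held a summit at 74 genes, 90.2% (81.7% to 95.7%) beside 78.6% of all protein-coding genes, and the Nrf2 KO As3+ list at 0 of 82 genes, 0% (0% to 4.40%), beside 0.414% of all genes. All 74 were thus absent after As3+, as were the summits of 78.2% of all protein-coding genes. In the Nrf2 KO control cells 39 of 44 collagen, all 12 laminin and 23 of 26 integrin genes had a summit. Against the WT control list, 70 genes had a summit in the Nrf2 KO control list alone, 85.4% beside 76.4% of all genes. The 62 genes of the WT As3+ list were all without one in the Nrf2 KO As3+ list, 75.6% beside 63.3% of all genes.

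When every list was cut to its 130 strongest peaks, ranked on −log10 p, which is the length of the shortest list, COL6A2 and LAMA5 were found in the WT control and again in the WT As3+ list, LAMA5 in the Nrf2 KO control list and no gene of the 3 families in the Nrf2 KO As3+ list. Of all protein-coding genes 0.419%, 0.454%, 0.614% and 0.414% had a summit in these shortened lists, in the same order, so that few genes could be called in any of them.

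Window length matters for such counts, since the windows of the 82 genes were long, with a median of 95600 bp against 32500 bp over all protein-coding genes. The genes were therefore also counted within bands of window length. In windows under 30 kb, 6 and 8 of 9 genes had a WT As3+ and a Nrf2 KO control summit, against 54.0% and 69.6% of all genes in the band. In windows of 30 to 100 kb, 26 of 33 genes had a WT As3+ summit and 30 of 33 a Nrf2 KO control summit, against 69.8% and 84.8% of all genes in the band. For the 40 genes with longer windows the numbers were 30 and 36, against 77.0% and 90.4% of all genes in that band. All 4 genes with a WT control summit lay in the 30 to 100 kb band, where 2.76% of all genes had one.

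The WT As3+ and the Nrf2 KO control lists, the long ones, both had a summit at 61 genes, 74.4% beside 61.0% of all protein-coding genes. With 62 and 74 of the 82 genes called, most of this overlap follows from those counts alone. ITGAM, which encodes the alpha chain of a leukocyte integrin, was the only one with a WT As3+ summit and no Nrf2 KO control summit, beside 2.65% of all genes, with 1 peak in intron 29 of fold enrichment 5.12 over 8 fragments. In the other direction 13 genes had a summit in the Nrf2 KO control list and none in the WT As3+ list, beside 17.6% of all genes. They included COL13A1 with 16 summits, COL22A1 with 11, LAMB4 with 4, COL6A3 and LAMB3 with 3, COL9A1, ITGA2B and ITGB7 with 2, and COL1A2, COL5A2, COL6A5 and COL6A6 with 1 each. COL3A1, COL4A5, COL4A6, COL10A1, COL28A1, ITGA10 and ITGB6 had no summit in any list, 7 genes beside 18.7% of all.

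**Figure D1:**
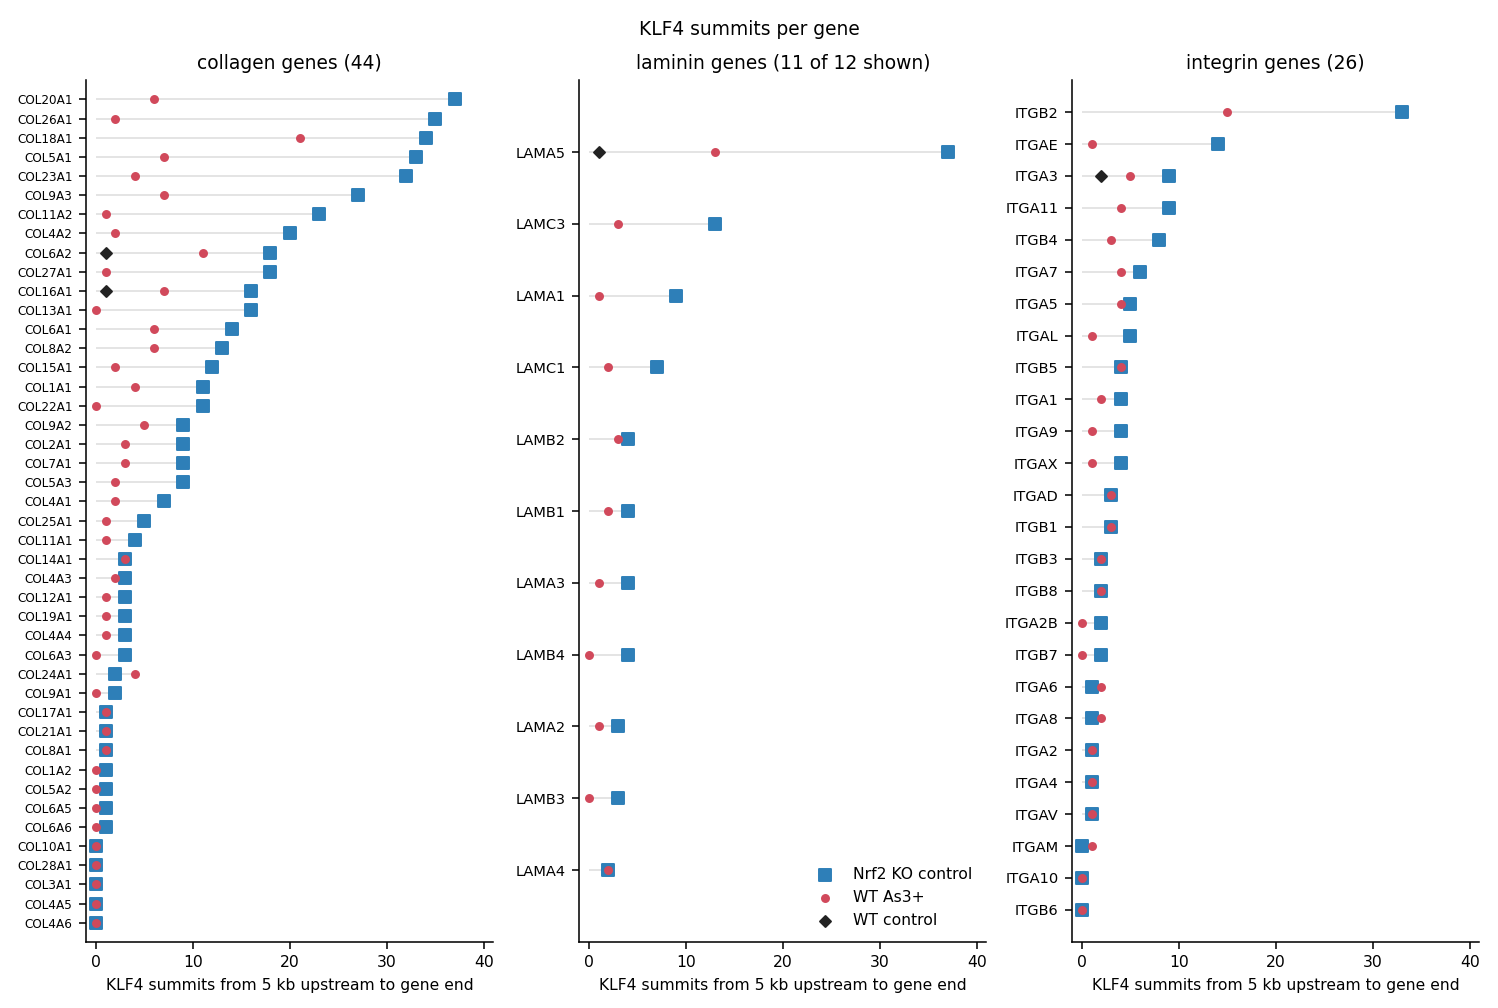
KLF4 summits in the window of each gene (x axis, number of summits; y axis, genes ordered by Nrf2 KO control count) for the 44 collagen, 11 of the 12 laminin and 26 integrin genes, with squares for Nrf2 KO control, circles for WT As3+ and diamonds for the 4 genes with a WT control summit; the Nrf2 KO As3+ list had none. COL20A1 and LAMA5 reach 37 squares each, and COL18A1 has the most circles, 21.

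The number of summits per gene was higher in the Nrf2 KO control than in the WT As3+ list at 58 genes, 70.7% beside 57.8% of all protein-coding genes. It was equal but above 0 at 13 genes, 15.9% beside 15.2%. It was higher in the WT As3+ list at 4 genes, 4.88% beside 8.31% of all. These were COL24A1 with 4 against 2 summits, ITGA6 and ITGA8 with 2 against 1, and ITGAM with 1 against 0. ITGA6 pairs with ITGB4 in the hemidesmosome. In the plot of summits per gene, the counts run from 0 to 37 among the collagens and from 2 to 37 among the laminins in the Nrf2 KO control list.

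The 5 WT control peaks sat at 4 genes, all with a peak at the same place in the WT As3+ list. Of all 751 WT control peaks 85.6% overlapped a WT As3+ peak. LAMA5, which encodes the alpha-5 chain of epithelial basement membrane laminins, had a peak in intron 2 of fold enrichment 8.22 over 51 fragments in the WT control, 28.2 over 87 fragments in the WT As3+ and 12.7 over 25 fragments in the Nrf2 KO control library. The Nrf2 KO As3+ list had no peak there. The local backgrounds were 5.32, 2.12 and 1.05 fragments in the same order. By fold enrichment this peak ranked 22 of 751, 4 of 29870 and 58 of 76545 within the 3 lists, so that it was among the strongest of each. Its summits lay 7763, 7754 and 7885 bp from the gene start.

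COL6A2, a chain of the beaded filament collagen VI, had its WT control peak in intron 10 at a fold enrichment of 9.94 over 58 fragments. The same site had 17.0 over 52 fragments in the WT As3+ and 10.3 over 26 fragments in the Nrf2 KO control library. Its rank by fold enrichment was 9, 47 and 292 within these lists. The higher fold of the WT As3+ library came with 52 against 58 fragments over the summit and a local background of 2.12 against 4.94 fragments.

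COL16A1, a fibril-associated collagen, had a WT control peak in intron 44 with a fold enrichment of 4.21 over 24 fragments, which was 10.3 over 30 fragments in the WT As3+ library. The Nrf2 KO control list had no peak there, although it held 16 summits elsewhere in the gene. ITGA3, the alpha chain of a laminin receptor, had WT control peaks 93 bp upstream of the start and in intron 1 with fold enrichments of 2.82 and 3.13. They were 4.70 and 9.66 in the WT As3+ and 6.09 and 5.63 in the Nrf2 KO control library. The upstream ITGA3 site had 25 fragments over a background of 8.23 in the WT control and 20 over 3.47 in the WT As3+ library. Its intron 1 site had 34 over 10.2 and 44 over 3.66. At all 5 WT control sites the fold enrichment was thus higher in the WT As3+ list, in single libraries, and the local background lower. The fragments over the summit were fewer in WT As3+ at COL6A2 and at the upstream ITGA3 site, and more at the other sites. The part of the background in the higher folds was not tested.

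**Figure D2:**
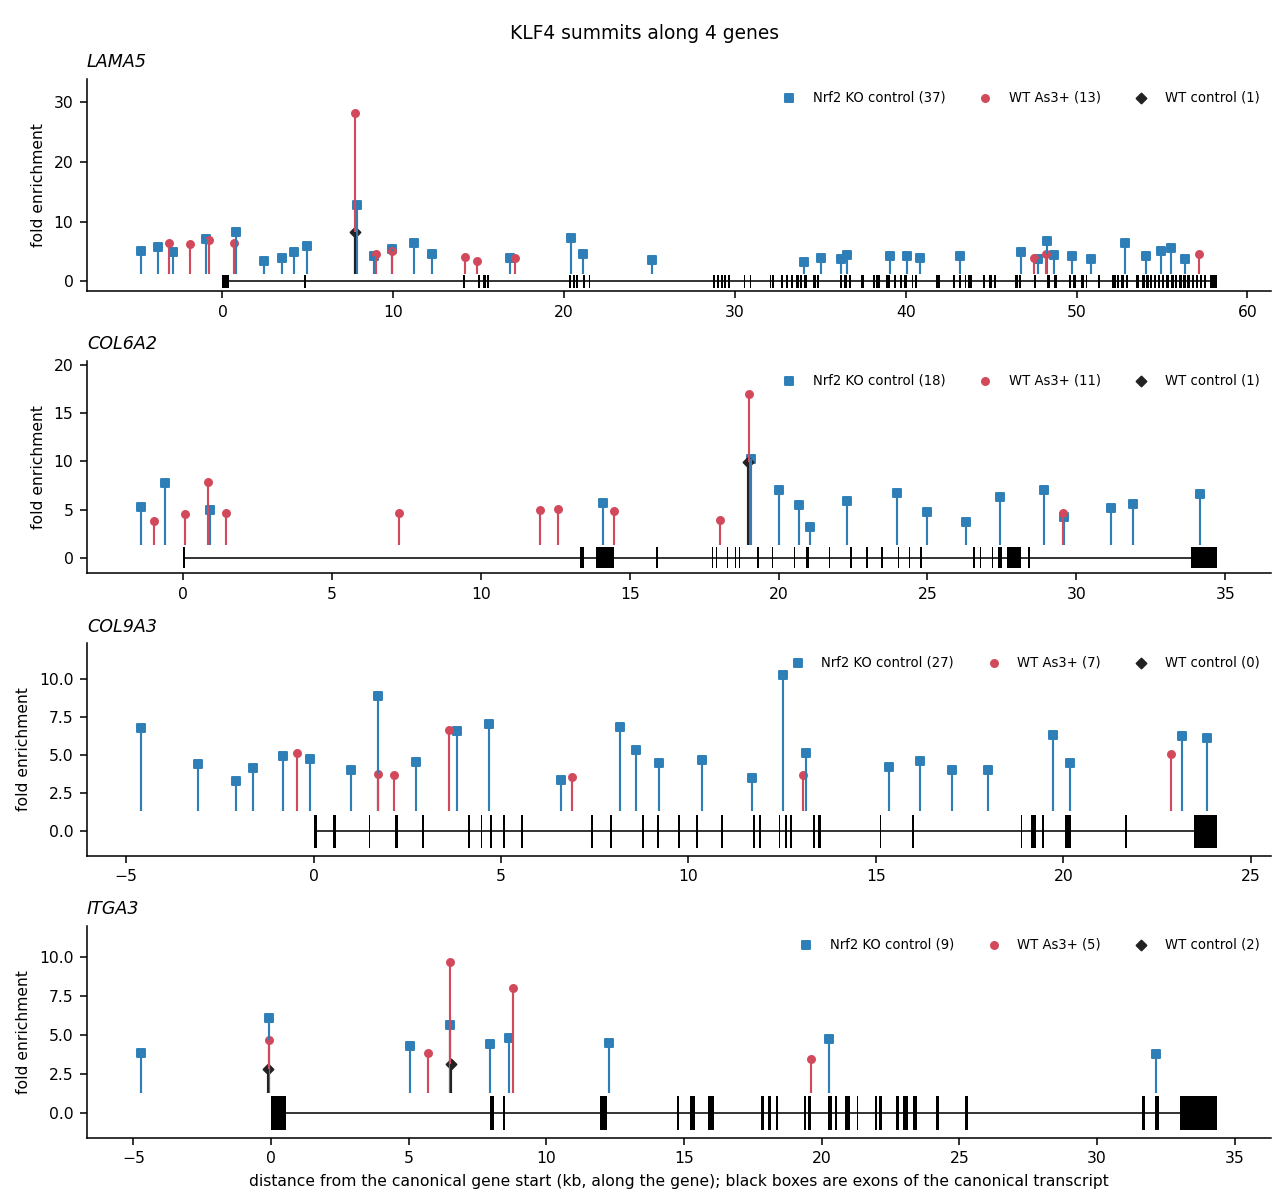
Fold enrichment of each KLF4 summit (y axis) by distance from the canonical gene start in kb along the gene (x axis) for LAMA5, COL6A2, COL9A3 and ITGA3, with black boxes for exons of the canonical transcript. The tallest LAMA5 summit, 28.2 in the WT As3+ list, and the tallest COL6A2 summit, 17.0, stand where the WT control list also had its only summit in each gene.

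Among the collagens, the ligands of the matrix, the WT As3+ list held 117 distinct summits and the Nrf2 KO control list 447. COL18A1, the precursor of endostatin, had the most in the WT As3+ list with 21, followed by COL6A2 with 11 and by COL5A1, COL9A3 and COL16A1 with 7 each. In the Nrf2 KO control list the leading genes were COL20A1 with 37, COL26A1 with 35, COL18A1 with 34 and COL5A1 with 33. The order of the collagens thus differed between the lists, and COL26A1 had 2 and COL27A1 1 WT As3+ summit against 35 and 18 in the Nrf2 KO control list.

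The highest fold enrichment of a collagen summit in the WT As3+ list after COL6A2 was 10.3 at COL16A1 and 10.2 at COL1A1, the main chain of type I collagen, over 41 fragments in its intron 1 at 842 bp from the start. The corresponding values in the Nrf2 KO control list were 10.3 in intron 20 of COL9A3, 10.3 in intron 42 of COL27A1 and 10.3 at the intron 10 site of COL6A2. The COL9A3 and COL27A1 sites had no peak in the WT As3+ list.

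By kind of collagen, 8 of 11 fibrillar collagens had a WT As3+ summit and 10 of 11 a Nrf2 KO control summit. Over all protein-coding genes the shares were 63.7% and 78.6%, and the counts of each kind below are to be read beside them. The network-forming collagens, which include type IV of the basement membrane, had 6 of 9 in either list. Of the 5 beaded filament collagens 2 and 5 had one, of the 10 fibril-associated collagens 8 and 10, and of the 4 transmembrane collagens 3 and 4, in the order WT As3+ and Nrf2 KO control. The type IV genes lie in 3 pairs that start close to each other on opposite strands, so that their windows overlap and share summits. COL4A1 and COL4A2 start 127 bp apart and shared 1 WT As3+ and 2 Nrf2 KO control summits. COL4A3 and COL4A4 start 419 bp apart and likewise shared 1 and 2. COL4A5 and COL4A6 start 1416 bp apart on X and had none.

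Laminin summits were concentrated in LAMA5. Of the 28 WT As3+ summits at laminin genes 13 lay at LAMA5, and of the 93 Nrf2 KO control summits 37 did. LAMB2 and LAMC3 followed with 3 WT As3+ summits each, and LAMC3, LAMA1 and LAMC1 with 13, 9 and 7 Nrf2 KO control summits. The highest fold enrichments after LAMA5 were 7.09 at LAMB2 and 6.83 at LAMA2 in the WT As3+ list, and 10.2 at LAMB2 and 8.18 at LAMC1 in the Nrf2 KO control list. The alpha chains had a WT As3+ summit at 5 of 5 genes and the beta chains at 2 of 4, and each of these genes had a Nrf2 KO control summit. Of all protein-coding genes 63.7% had a WT As3+ and 78.6% a Nrf2 KO control summit.

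Integrins, the receptors, had 63 WT As3+ and 124 Nrf2 KO control summits. ITGB2, the beta chain of the leukocyte integrins, had the most in both lists with 15 and 33. Next came ITGA3 with 5 in the WT As3+ list, and ITGAE with 14 and ITGA3 and ITGA11 with 9 each in the Nrf2 KO control list. The highest fold enrichments belonged to other genes. In the WT As3+ list they were 11.0 at ITGA4, 63 bp upstream of its start, 9.66 at ITGA3 and 9.45 at ITGB8, 96 bp upstream. In the Nrf2 KO control list they were 10.8 in intron 1 of ITGA9, 8.54 at ITGB3 and 8.0 in intron 4 of ITGA2B. The ITGA4 promoter summit, the highest of the family after As3+, had 3.46 in the Nrf2 KO control list, while the ITGA9 site had no WT As3+ peak.

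By ligand, all 3 alpha chains of the laminin receptors, ITGA3, ITGA6 and ITGA7, had a summit within 2 kb of the start in both long lists. Of all protein-coding genes 52.5% had one in the WT As3+ and 67.5% in the Nrf2 KO control list. Of the 4 alpha chains of collagen receptors 2 had a summit within 2 kb of the start in the WT As3+ list and 3 in the Nrf2 KO control list. In the whole gene window 3 of the 4 had one in each long list, beside 63.7% and 78.6% of all genes. The 5 alpha chains of leukocyte integrins had 7 WT As3+ and 26 Nrf2 KO control summits, of which ITGAE held 1 and 14.

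**Figure D3:**
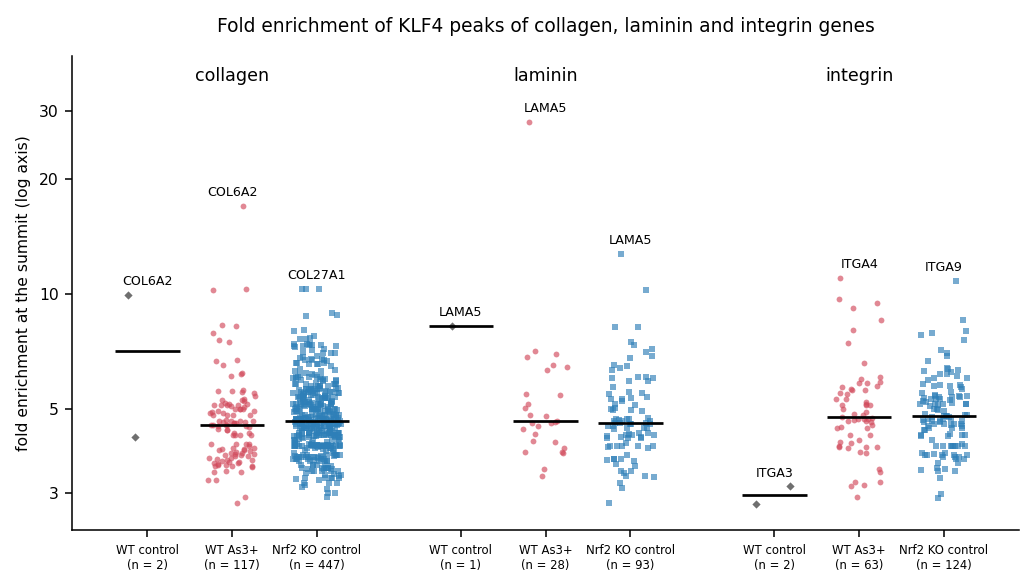
Fold enrichment at the summit (y axis, log scale) of every distinct KLF4 peak at collagen, laminin and integrin genes in the WT control, WT As3+ and Nrf2 KO control lists, 1 point per peak, with a bar at the median and the gene of the highest point named. Medians of the long lists lie between 4.54 and 4.77 in all 3 families, and LAMA5 and COL6A2 stand above the rest in the WT As3+ list.

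LAMA3 and LAMB3 encode chains of the laminin that anchors epithelia through hemidesmosomes, and its partners are the integrin of ITGA6 and ITGB4, the transmembrane collagen COL17A1 and the anchoring fibril collagen COL7A1. Of these 6 genes none had a WT control or Nrf2 KO As3+ summit, 5 had 10 summits in the WT As3+ list and all 6 had 26 in the Nrf2 KO control list, where 63.7% and 78.6% of all protein-coding genes had a summit. ITGB4 had the strongest WT As3+ peak of the 6 genes, of fold enrichment 9.15 over 24 fragments at 138 bp upstream of the start with an AP-1 word, and 7.91 over 16 fragments at the same promoter in the Nrf2 KO control list. LAMA3 had its only WT As3+ summit 68 bp upstream of the start with 5.44, and ITGA6 its highest at 5.97 in exon 1. The promoters of LAMA3, ITGA6, ITGB4 and COL7A1 had a summit in both long lists, and those of LAMB3 and COL17A1 in neither.

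The COL7A1 promoter peak, whose AP-1 word is printed above, had 6.17 over 23 fragments in the WT As3+ list. In the Nrf2 KO control list the highest COL7A1 summit was 8.79 over 17 fragments, 525 bp inside the gene at the KLF word printed above. LAMB3 had no WT As3+ summit and 3 in the Nrf2 KO control list with fold enrichments of at most 3.94, all more than 20 kb from its start. COL17A1 had a single summit in each long list, near exon 45 and far from its start, with 4.49 and 4.63. Promoter summits in the WT As3+ list were thus found at LAMA3, ITGA6, ITGB4 and COL7A1, 4 of the 6 genes, beside the 52.5% of all protein-coding genes with one.

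Summits near gene starts, where promoters lie, were counted next. A summit within 2 kb of the canonical start was found at 1 gene in the WT control list, ITGA3, beside 0.794% of all protein-coding genes. The WT As3+ list had one at 45 genes, 54.9% (43.5% to 65.9%) beside 52.5% of all, and the Nrf2 KO control list at 60 genes, 73.2% (62.2% to 82.4%) beside 67.5%. The Nrf2 KO As3+ list had 0, beside 0.195% of all genes.

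Most of the summits of these families lay inside the genes. Over gene and summit pairs, 36.2% (29.7% to 43.1%) of the 210 WT As3+ pairs were within 2 kb of the start, against 55.6% (55.0% to 56.2%) over all protein-coding genes, and 51.9% were in introns against 25.4%. In the Nrf2 KO control list 17.8% (15.0% to 20.9%) of 668 pairs were within 2 kb of the start, against 36.8% (36.5% to 37.2%), and 64.7% in introns against 40.0%. The intervals of members and all genes did not overlap in either list. They cover counting error only, and summits of 1 gene share their surroundings. The median window of these genes is longer, as given above.

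**Figure D4:**
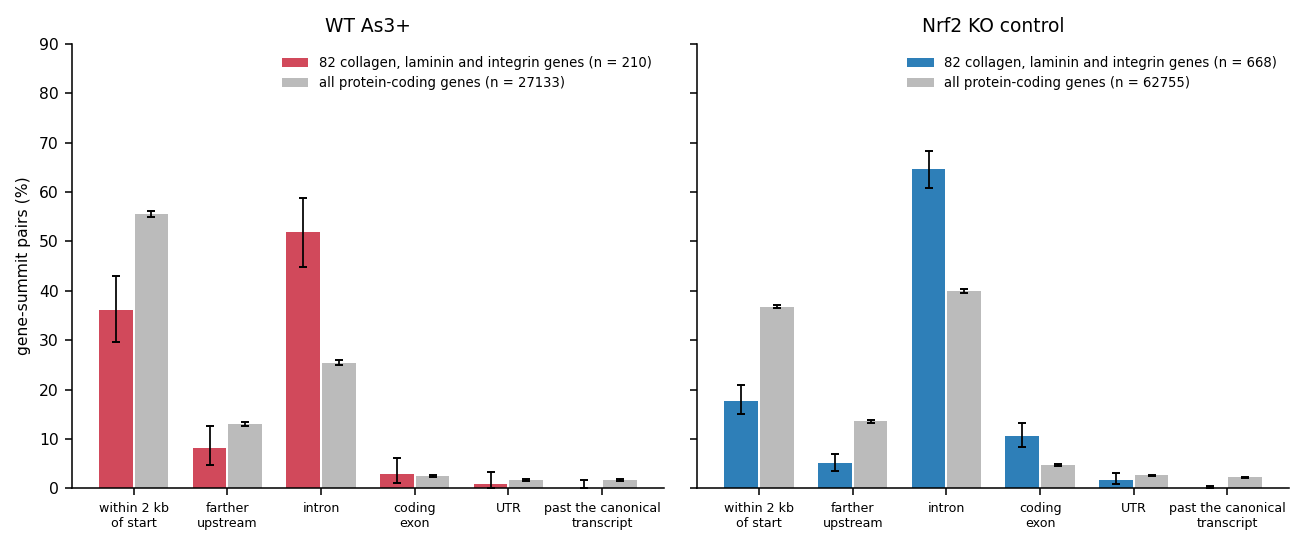
Share of gene and summit pairs (y axis, %) by place relative to the canonical transcript (x axis) in the WT As3+ and the Nrf2 KO control list, coloured bars for the 82 genes and grey bars for all protein-coding genes, with 95% Clopper-Pearson intervals. Introns hold 51.9% and 64.7% of the pairs of the 82 genes and 25.4% and 40.0% of all pairs.

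Coding exons differed between the long lists. They held 6 of 210 pairs in the WT As3+ list, 2.86% (1.06% to 6.11%), against 2.50% of all pairs, and 71 of 668 in the Nrf2 KO control list, 10.6% (8.39% to 13.2%), against 4.73%. Per length, outside the 2 kb around starts, coding exons of the 82 genes had 20.7 Nrf2 KO control summits per 100 kb and introns 4.47, where all protein-coding genes had 10 and 2.29. In the WT As3+ list the values were 1.75 in coding exons and 1.13 in introns, where all protein-coding genes had 2.28 and 0.63. The 71 summits were spread over 34 genes, with 9 at COL20A1, 8 at LAMA5, 6 at COL11A2 and 5 at COL16A1. The coding sequence of these families had a GC content of 55.9%, and that of the collagens, whose triple helix repeats glycine and proline codons, 58.0%, against 51.1% over all protein-coding genes. Introns had 42% in these families and 41.3% over all.

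Few of the summits could be assigned to a neighbour by distance. The nearest protein-coding start within 2 kb belonged to a gene outside the 3 families for 4 of 208 WT As3+ and 9 of 664 Nrf2 KO control summits.

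Summit density varied more between genes than between families. The 82 windows held 1.87 WT As3+ and 5.98 Nrf2 KO control summits per 100 kb, against 1.64 and 3.91 over all protein-coding genes. By family the WT As3+ densities were 1.70 for collagens, 1.52 for laminins and 2.66 for integrins, and the Nrf2 KO control densities 6.5, 5.04 and 5.23. The ratio of Nrf2 KO control to WT As3+ density was 3.82 for collagens, 3.32 for laminins and 1.97 for integrins, against 2.38 over all protein-coding genes. COL9A3 had the highest Nrf2 KO control density of the 82 genes, with 27 summits and 90.3 per 100 kb.

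The density varied with the base composition and the place of the gene. The 32 genes with a window GC content of 50% or more had 6.64 WT As3+ and 22.3 Nrf2 KO control summits per 100 kb, and all 5 WT control summits. The 50 genes under 50% had 0.646 and 1.79. All protein-coding genes split the same way had 6.82 and 18.2 in the first class, and 1.01 and 2.14 in the second. Across the 82 genes, Spearman's rho of GC content and density was 0.68 in the WT As3+ and 0.89 in the Nrf2 KO control list, and 0.48 and 0.68 across all protein-coding genes. Genes share the library and are no independent replicates, so these are descriptions. The part of base composition in the number of peaks was not tested.

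**Figure D5:**
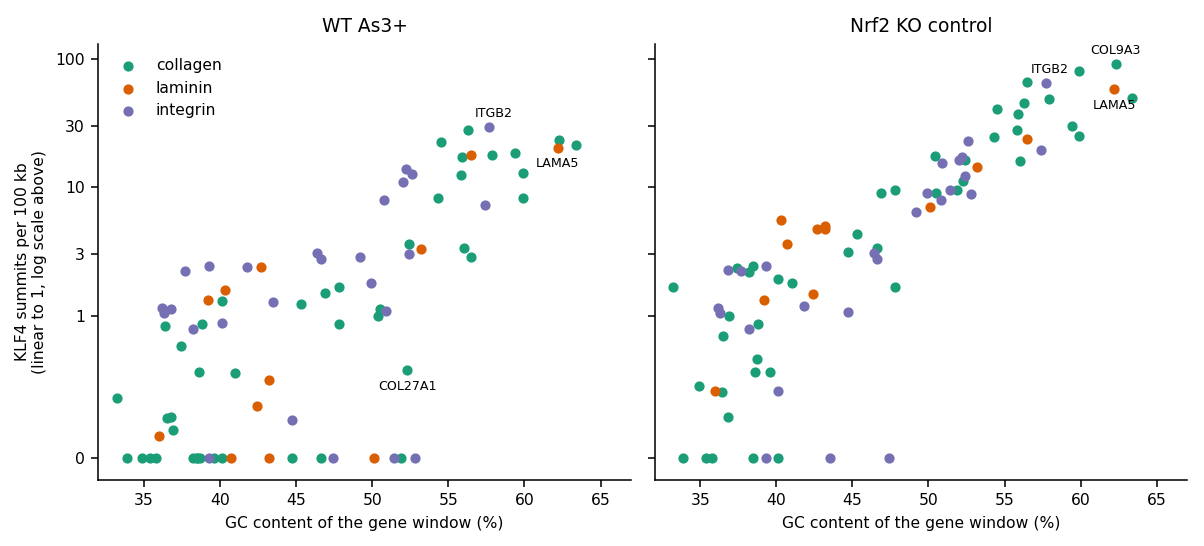
KLF4 summits per 100 kb (y axis, linear up to 1 and on a log scale above) against the GC content of the gene window in percent (x axis) for each of the 82 genes, coloured by family, in the WT As3+ (left) and Nrf2 KO control (right) list. Density rises with GC content in both panels, up to 29.4 at ITGB2 on the left and 90.3 at COL9A3 on the right, and COL27A1 lies low on the left at 0.617.

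The 13 genes within 5 Mb of a chromosome end had 94 of the 208 WT As3+ and 307 of the 664 Nrf2 KO control summits, at densities of 6.31 and 20.6 per 100 kb, against 4.04 and 11.3 for all protein-coding genes there. The 7 of them on chromosomes 20 and 21, named after their values were seen, were COL9A3, COL20A1 and LAMA5 on 20 and COL6A1, COL6A2, COL18A1 and ITGB2 on 21. They held 79 WT As3+ summits, 38% of those at the 82 genes, and 200 Nrf2 KO control summits, 30.1%. Their densities were 21.1 and 53.5 per 100 kb, while all protein-coding genes within 5 Mb of an end had 5.10 and 19.3 on chromosome 20 and 5.70 and 13.2 on chromosome 21.

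The peaks of the long lists often differed in place, both at these genes and over all peaks. Of the 208 WT As3+ peaks at these genes, 112 overlapped a Nrf2 KO control peak by at least 1 bp, 53.8% (46.8% to 60.8%) beside 55.6% of all WT As3+ peaks. The share was 48.7% for collagens, 60.7% for laminins and 60.3% for integrins, with intervals that overlap. It was 75.3% (64.2% to 84.4%) for peaks whose nearest protein-coding start was within 2 kb and 41.2% (32.7% to 50.2%) for the others, against 78.8% and 36.3% over all WT As3+ peaks. In the other direction 109 of 664 Nrf2 KO control peaks, 16.4% (13.7% to 19.5%), overlapped a WT As3+ peak, against 21.7% of all. All 5 WT control peaks overlapped a WT As3+ peak (47.8% to 100%), beside 85.6% of all WT control peaks. Of the 5, 4 overlapped a Nrf2 KO control peak (28.4% to 99.5%), all but the one at COL16A1, beside 52.2% of all.

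In windows of 200 bp around the summits, the KLF word occurred in 3 of the 5 windows for WT control, 21 of 208 for WT As3+ and 54 of 664 for Nrf2 KO control. Of all 751 WT control windows 26.5% held it. The shares of the long lists were 10.1% (6.36% to 15.0%) and 8.13% (6.17% to 10.5%), beside 10.3% and 9.27% of all windows of those lists. The AP-1 word occurred in 0 of the 5 WT control windows, beside 18.2% of all, and in 4.33% (2.0% to 8.05%) of the WT As3+ and 2.56% (1.5% to 4.07%) of the Nrf2 KO control windows, beside 4.33% and 2.54% of all. In the long lists the shares at these genes were within counting error of those of all peaks. A promoter sequence in RefSeq was matched for 58 of the 82 genes, with 77 promoters of 300 bp. The KLF word was in 9 of them, 11.7% against 8.05% of 35116 promoters, and the AP-1 word in 3, 3.9% against 4.95%.

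Other genes of matrix assembly and adhesion, 55 in all, were read in the same window. The number with a summit was 5 for WT control, 52 for WT As3+, 54 for Nrf2 KO control and 1 for Nrf2 KO As3+. These were 9.09%, 94.5%, 98.2% and 1.82%, beside 2.28%, 63.7%, 78.6% and 0.414% of all protein-coding genes. The 55 genes were not counted within bands of window length, so these shares are not matched for it. All 19 integrin adaptors, such as the talin and kindlin genes that switch integrins on, had a summit in both long lists. Of the 21 genes of collagen modification and cross-linking, 19 had a WT As3+ and 21 a Nrf2 KO control summit, and the exceptions were P4HA1 and P4HA3, prolyl hydroxylase subunits. The matrix glycoproteins had 11 of 12 in both lists, without VTN, which encodes vitronectin.

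The WT control summits of these partners fell at PLEC with 5, TLN2 with 2, and HSPG2, BCAR1 and DST with 1 each. PLEC and DST encode plakins that tie the hemidesmosome to keratin, and HSPG2 encodes perlecan. DST also had the single Nrf2 KO As3+ summit of the list. CD151, a tetraspanin partner of laminin-binding integrins, had 0 in the WT control, 7 in the WT As3+ and 10 in the Nrf2 KO control list.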

How the data were processed

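The authors cross-linked BEAS-2B cells, immunoprecipitated KLF4, sequenced 75-nt reads and aligned them to GRCh38/hg38 with BWA. The submitters' processing notes also name bcl2fastq 2.17. The peak caller is not given in the sources used here. For each library the authors deposited 1 peak list, called separately, with a score (10 times −log10 q, rounded down), the fold enrichment over local background as a ratio, −log10 p, −log10 q and the summit offset. Values of fold enrichment describe peaks within a list. The lists give no read counts or depth.

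Genes and canonical transcripts came from GENCODE 44 on the same build. A gene had a summit if one lay from 5 kb upstream to the gene end, and promoters spanned 2 kb on either side of the canonical start. Places "upstream" refer to the canonical start. Fragments n and background λ were solved from fold = (n + 1)/(λ + 1) and a Poisson upper tail, which fitted −log10 p to within 0.000191. Shares carry exact 95% Clopper-Pearson intervals, for counting error only. No test across libraries was possible with 1 library per condition. Named genes were the hemidesmosome set, members with a WT control or Nrf2 KO As3+ summit, those leading each family by summits (4) or fold (3) in the long lists, those with a WT As3+ summit alone, those without any, and overlapping pairs. The values of 1 laminin gene are not reported here. Members and lists were chosen with earlier results of these data known. The window, overlap, placement and fragment steps were tested on simulated data. The fragment data were simulated from the same formula and Poisson tail, so that check cannot show whether the peak caller used this model. Alternatives were a −log10 q of at least 5, the 130 strongest peaks, other gene and promoter windows, whole peaks in place of summits, other definitions of a shared peak and a 100-bp word window. Histone mark and input libraries were not used here. The genome was indexed with samtools 1.23.1 and read with pysam 0.24.0 in Python 3.11.15, with pandas 2.3.3, numpy 2.4.6, matplotlib 3.10.9 and scipy 1.17.1.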

Additional observations from a re-analysis of the deposited data

Results flagged for a closer look

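The direction of the arsenic contrast was opposite in WT and Nrf2 KO cells. The number of genes with a summit differed by 58 between As3+ and control in WT and by -74 in Nrf2 KO cells, for collagens by 29 and -39, for laminins by 8 and -12 and for integrins by 21 and -23. At 61 of the 82 genes the number of summits was higher after As3+ in WT and lower after As3+ in Nrf2 KO. Of all protein-coding genes 60.6% showed the same pattern. Each value rests on 1 library per condition, and the difference between the contrasts was not tested.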

How the results depend on the processing

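No paired analysis was possible because each condition has 1 library. Of 121 recomputed values, 80 stayed within 1.5 times the count or within the interval of the value given above, and 41 moved. Some of the 80 were fixed in advance. A count of 0 in the Nrf2 KO As3+ list cannot rise under a stricter threshold or a narrower window. The cut to 130 peaks leaves that list whole. Another gene window, whole peaks in place of summits, or distinct intervals moved none. Under the stricter −log10 q minimum of 5, genes with a summit numbered 33 in WT As3+ and 49 in Nrf2 KO control (40.2% and 59.8%, against 35.5% and 48.0% of all protein-coding genes), alone in WT As3+ against WT control 30, alone in Nrf2 KO control against Nrf2 KO As3+ 49 and against WT control 46, and alone in WT As3+ against Nrf2 KO As3+ 33. Promoter summits were then 0 in WT control, 28 in WT As3+ and 32 in Nrf2 KO control, and the other matrix genes 33 in WT As3+ and 0 in Nrf2 KO As3+. Densities per 100 kb in WT As3+ and Nrf2 KO control were 0.46 and 1.12 for all 82 genes, 0.305 and 1.1 for collagens, 0.542 and 1.19 for laminins and 0.843 and 1.1 for integrins. The KLF word was in 15.7% (7.02% to 28.6%) of 51 WT As3+ and 11.3% (6.31% to 18.2%) of 124 Nrf2 KO control windows. Of all windows at that threshold 12.4% and 8.69% held it. The AP-1 word was in 9.80% (3.26% to 21.4%) of the WT As3+ windows, beside 5.64% of all. With the 130 strongest peaks, genes with a summit were 2 in WT control, 2 in WT As3+ and 1 in Nrf2 KO control, the differences above 0, 1, 0 and 2, promoter summits 0 in each of these lists, and the other matrix genes 2, 4 and 3. With any annotated transcript start, 2 genes had a WT control promoter summit. The share of WT As3+ peaks found in Nrf2 KO control was 45.2% when the overlap had to cover 50% of the shorter peak and 37.0% for summits within 200 bp. In 100-bp windows the KLF word was at 5.29% and 4.37% and the AP-1 word at 1.05% in Nrf2 KO control. The stricter threshold and the cut to 130 peaks shorten the lists, and other starts add places where a summit counts. Medians of 10 and 7 fragments per summit limit what the long lists can separate.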
